A study of Mus musculus with 6 samples.

Results

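Laminins, nidogens and perlecan are the large secreted proteins that, with collagen IV, build the basement membrane around every muscle fibre. The 9 genes described here are the laminin alpha chains Lama2, Lama4 and Lama5, the beta chains Lamb1 and Lamb2, the gamma chain Lamc1, the nidogens Nid1 and Nid2 and the perlecan gene Hspg2. They were chosen by symbol, matched to Ensembl identifiers and read from a matrix of raw counts that holds 21666 genes. All 9 passed the filter on low counts that left 15518 genes for testing. The libraries came from cultured satellite cells, the resident stem cells of mouse skeletal muscle, taken 2 days into differentiation. There were 3 libraries from wild-type (WT) mice and 3 from mice lacking the long noncoding RNA lncMREF (KO), which the series title links to muscle differentiation and to the Smarca5/p300 chromatin complex. The labels give the genotype only as WT or lncMREF KO. They do not name the allele, strain, age or number of animals, or say whether each replicate was its own animal or culture. The p-values therefore reflect the spread among these 6 libraries, which may be technical.

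A laminin is a cross-shaped trimer of 1 alpha, 1 beta and 1 gamma chain, and the alpha chain carries the globular end that binds cell receptors. Trimers with alpha 2 are the main laminin of mature muscle fibres, and loss of Lama2 causes a congenital muscular dystrophy. Alpha 4 and alpha 5 are known from vessels, nerve and developing muscle, and beta 2 is known from the neuromuscular junction. Nidogens bind the gamma 1 chain and link the laminin sheet to collagen IV, and perlecan is a heparan sulphate proteoglycan that ties the sheet to growth factors and to dystroglycan on the cell surface.

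Perlecan was higher and laminin alpha 5 lower in KO than in WT cells, and the other 7 genes differed by less than 1.3-fold. By edgeR's quasi-likelihood test, 5 of the 9 genes were called at an adjusted p under 0.05, 3 lower in KO (Lama5, Lamb2 and Lamc1) and 2 higher (Hspg2 and Lama4). Of all 15518 genes, 66.7% were called, 33.0% lower and 33.7% higher, so a share of 5 in 9 was no more than that of genes at large. None of the 9 changed by over 2-fold, a size that 17.9% of all genes reached with a call. The ranges of WT and KO libraries did not overlap for 6 of the 9 genes, 4 with KO below WT and 2 with KO above it, against 69.4% of all genes (34.1% below and 35.3% above). The median absolute log2 fold change was 0.19 over the 9 genes and 0.38 over all genes tested. The median signed change was -0.08 over the 9 genes and 0.02 over all genes.

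The libraries held 17919826 to 28430678 counts each, and the 9 genes together took 0.416% to 0.438% of counts in WT and 0.525% to 0.575% in KO libraries. Genes of the mitochondrial chromosome took 3.97% to 4.18% in WT and 2.07% to 2.3% in KO libraries. Levels below are CPM, counts scaled to a common library total with TMM factors. The labels give no identifier for lncMREF, so its own count is not analysed here. With scaling by library size alone, the median change of all genes moved from 0.02 to 0.19, and each log2 fold change below is relative to the TMM scale. Muscle lineage markers Pax7, Myod1, Myog, Des, Myh3 and Ckm were all present, with a summed level of 10131 to 10686 CPM in WT and 2004 to 2122 in KO libraries. Myh3 (mean 5695 in WT and 948 in KO) and Des (3099 and 574) made up most of both sums. Pax7, at 10.5 in WT and 15.1 in KO, hardly counts in them.

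**Figure D1:**
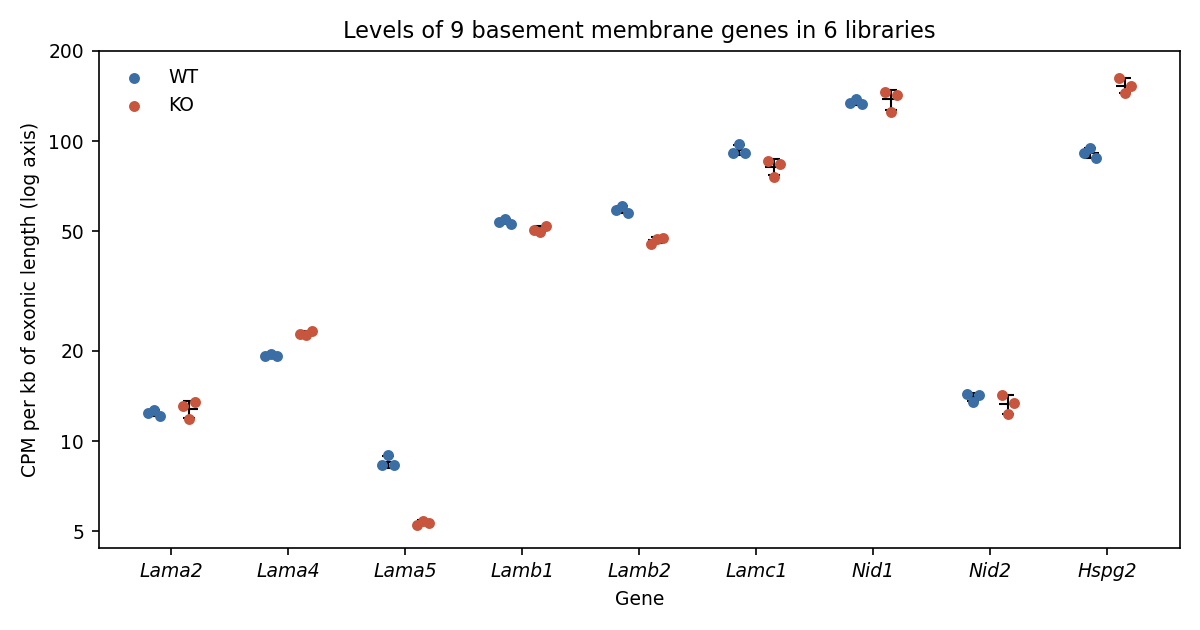
Levels of the 9 genes in CPM per kb of exonic length on a log axis, with 1 point per library (WT blue, KO red) and the mean with its SD in black. Lama5 and Hspg2 have the widest gaps between genotypes, and Nid1, Hspg2 and Lamc1 lie highest.

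Perlecan had the largest change of the set. Hspg2 (ENSMUSG00000028763, mm10 chromosome 4, 137468769 to 137570630, plus strand) stood at 1301, 1361 and 1257 CPM in WT replicates 1 to 3 and at 2315, 2070.2 and 2188 in KO replicates 1 to 3. Every KO library lay above every WT library. The means were 1306 ± 52.5 and 2191 ± 122 (SD, n = 3 each), which is a log2 difference of 0.75 (SE 0.04, edgeR adjusted p 4.27e-17), or 67.7% more in KO. Of all tested genes, 26.2% changed by more than Hspg2 did in either direction. The count tables deposited per library gave the opposite call, lower in KO (-1.77, SE 0.22, edgeR adjusted p 4.04e-08), on 73, 73 and 99 counts in WT and 23, 27 and 18 in KO libraries. Those tables hold 0.134% of the matrix's mean count for Hspg2, and the cause of the difference was not tested.

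Laminin alpha 5 had the largest fall. Lama5 (ENSMUSG00000015647, chromosome 2, 180176373 to 180225859, minus strand) was at 94.6, 102.5 and 94.7 CPM in WT and at 59.6, 61.9 and 61.0 in KO libraries. The 2 ranges did not overlap. The mean was 97.3 ± 4.54 CPM in WT and 60.8 ± 1.16 in KO, or -0.68 as a log2 fold change (SE 0.05, edgeR adjusted p 5.89e-14). Of all tested genes, 29.3% changed by more.

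Laminin alpha 4 went the other way from alpha 5. Lama4 (ENSMUSG00000019846, chromosome 10, 38965515 to 39110188, plus strand) had 231, 236 and 233 CPM in WT and 275, 272 and 280.5 in KO libraries, with a gap between the groups and little spread within either. Its mean rose from 233 ± 2.59 to 276 ± 4.18, a log2 fold change of 0.24 (SE 0.04, edgeR adjusted p 3.41e-06).

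Laminin alpha 2, the chain of the mature fibre, was not called. Lama2 (ENSMUSG00000019899, chromosome 10, 26980036 to 27619758, minus strand) had 202, 208 and 198 CPM in WT and 213, 194 and 219.8 in KO libraries, and the ranges overlapped. The log2 fold change was 0.04 with a 95% interval from -0.05 to 0.14 (edgeR adjusted p 0.413). With library size alone it was 0.21 and called (adjusted p 9.31e-05). Of its exonic bases, 3.86% are shared with the antisense gene Gm48084, and no source used here says whether counting used strand.

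The beta chains separated. Lamb2 (ENSMUSG00000052911, chromosome 9, 108479736 to 108490530, plus strand) had 359, 369 and 351 CPM in WT and 276, 288 and 289.8 in KO libraries, with every KO library below every WT library. Its mean fell from 359.6 ± 9.44 to 285 ± 7.27, a log2 fold change of -0.34 (SE 0.04, edgeR adjusted p 8.15e-09). In the per-library tables it was -0.14 and not called (adjusted p 0.122). Lamb1 (ENSMUSG00000002900, chromosome 12, 31265234 to 31329644, plus strand) had 532, 544 and 524 CPM in WT and 502, 495 and 517 in KO libraries. Its ranges did not overlap either, but the gap was small and the test did not call it, at -0.08 with a 95% interval from -0.16 to 0.00 (edgeR adjusted p 0.0789). The call of Lamb1 changed with the setting: it was called lower with median-of-ratios factors (-0.09, adjusted p 0.0469), with DESeq2 (0.0396), without a low-count filter (0.0337), with GC and length offsets (0.0194), without KO replicate 3 (0.0459) and in the per-library tables (-0.285, adjusted p 5.98e-05), and called higher with library size alone (0.09, adjusted p 0.0435).

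The shared gamma chain fell by a small amount. Lamc1 (ENSMUSG00000026478, chromosome 1, 153218922 to 153332786, minus strand) had 753, 806 and 756 CPM in WT and 709.8, 629.7 and 696 in KO libraries, with KO replicate 2 the lowest and no overlap between groups. The mean went from 772 ± 29.6 to 678 ± 42.8, a log2 fold change of -0.19 (SE 0.04, edgeR adjusted p 0.000468). With library size alone this was -0.02 and not called (adjusted p 0.771).

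Neither nidogen was called. Nid1 (ENSMUSG00000005397, chromosome 13, 13437551 to 13512269, plus strand) had 927, 957 and 923 CPM in WT and 1012, 870.2 and 986 in KO libraries, so that the KO range enclosed the WT range. Its log2 fold change was 0.03 with a 95% interval from -0.06 to 0.13 (edgeR adjusted p 0.569), and 95.2% of all tested genes changed by more. Nid2 (ENSMUSG00000021806, chromosome 14, 19751265 to 19811787, plus strand) had 74.1, 70.1 and 73.7 CPM in WT and 73.6, 63.7 and 69.4 in KO libraries, again overlapping. Its log2 fold change was -0.08 with a 95% interval from -0.19 to 0.03 (edgeR adjusted p 0.205). With library size alone Nid1 was called higher (0.20, adjusted p 0.000274) and Nid2 turned to 0.09, not called (0.135). The per-library tables called Nid1 higher (1.06, SE 0.21, edgeR adjusted p 6.71e-05) on 35 to 59 counts in WT and 69 to 116 in KO libraries. Nid2 shares 8.45% of its exonic bases with Rtraf on the other strand, and Nid1 2.06% with the antisense gene Gm48682.

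**Figure D2:**
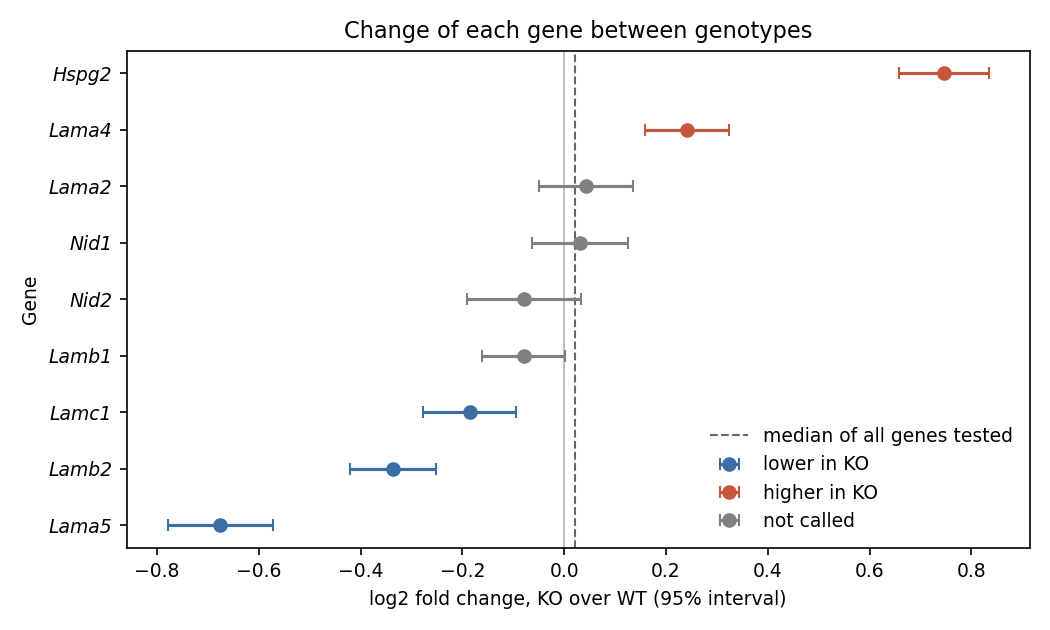
Log2 fold change of each gene, KO over WT, with its 95% interval from edgeR, in order of size; colours give the call and the dashed line the median of all genes tested, 0.02. Hspg2 at 0.75 and Lama5 at -0.68 stand furthest from that line, and the intervals of Lama2, Lamb1, Nid1 and Nid2 include 0.

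KO replicate 2 was the lowest KO library for 7 of the 9 genes and WT replicate 2 the highest WT library for 8 of them. Without KO replicate 2, 4 of the 9 genes were called higher in place of 2. Of all genes, 4987 of 15748 tested were called higher in that fit, against 5230 of 15518 with all 6 libraries. Among the 9, those added were Lama2 (0.10, edgeR adjusted p 0.0487) and Nid1 (0.10, adjusted p 0.0334). Hspg2, Lama4, Lama5 and Lamb2 kept their direction and call when any of the 6 libraries was left out and under each other scaling, filter, test and offset applied to the matrix. Over those settings Hspg2 ran from 0.70 to 0.92, Lama4 from 0.22 to 0.41, Lama5 from -0.71 to -0.50 and Lamb2 from -0.37 to -0.17.

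The promoters of the 3 genes with the largest changes are shown to describe their base composition. Whether composition bears on the changes was not tested. Each is the RefSeq stretch (GRCm38.p6, the mm10 assembly) of 300 bases, from 250 before the transcription start, written 5′ to 3′ on the gene's strand, with capitals for GGGCGG (the GC box bound by Sp family factors) or its reverse complement. The table held promoters for 6 of the 9 genes. The RefSeq start lay 2816 bases downstream of the gene's start in the GENCODE annotation for Lama2 and 126 for Lamb2. For the others it lay 0 to 59 bases downstream. The Lama2 window thus lies wholly inside the annotated gene, and what its letters hold may not describe its main promoter.
Hspg2, chr4:137468553-137468852, plus strand: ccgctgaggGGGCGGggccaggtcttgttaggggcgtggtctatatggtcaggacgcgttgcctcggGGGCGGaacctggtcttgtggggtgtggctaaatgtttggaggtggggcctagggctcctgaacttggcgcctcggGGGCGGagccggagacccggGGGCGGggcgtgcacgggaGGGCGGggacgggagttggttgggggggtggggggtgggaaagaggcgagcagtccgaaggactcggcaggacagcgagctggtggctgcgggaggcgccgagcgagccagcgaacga
Lama5, chr2:180225810-180226109, minus strand: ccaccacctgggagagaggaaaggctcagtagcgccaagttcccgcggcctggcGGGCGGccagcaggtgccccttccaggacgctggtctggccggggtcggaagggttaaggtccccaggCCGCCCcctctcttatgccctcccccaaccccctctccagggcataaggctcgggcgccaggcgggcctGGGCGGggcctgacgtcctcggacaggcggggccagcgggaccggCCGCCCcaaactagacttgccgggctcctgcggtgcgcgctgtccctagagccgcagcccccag
Lamb2, chr9:108479612-108479911, plus strand: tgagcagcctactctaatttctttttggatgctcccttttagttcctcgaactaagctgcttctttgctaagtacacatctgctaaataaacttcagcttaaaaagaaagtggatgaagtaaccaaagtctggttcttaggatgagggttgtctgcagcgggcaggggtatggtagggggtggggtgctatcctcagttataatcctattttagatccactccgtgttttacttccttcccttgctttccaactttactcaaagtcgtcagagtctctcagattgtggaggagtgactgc
The perlecan promoter, whose gene rose, holds 5 GC boxes at 70.3% GC, and the Lama5 promoter, whose gene fell, holds 4 at 72.7% GC. That of Lamb2, which also fell, holds none at 44% GC. Over all 32851 promoters in the table, 35.7% hold GGGCGG on either strand and the median GC content is 52.7%. CAGCTG, an E-box form bound by myogenic factors, was in none of the 6 promoters and in 16.3% of all, and TATAAA was in none of the 6 and in 13.6% of all. Searched on both strands, the wider E-box CANNTG, which includes CAGCTG, was found in the promoters of Lama2, Lama5, Lamb1 and Lamb2, and in 72.3% of all. These matches describe letters in the window, and binding was not measured.

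Per kb of exonic length, the level rose along the order Lama5, Lama2, Nid2, Lama4, Lamb1, Lamb2, Hspg2, Lamc1 and Nid1 in WT cells, from 8.54 ± 0.399 CPM per kb for Lama5 to 134.7 ± 2.74 for Nid1. Hspg2 (91.3 ± 3.67) and Lamc1 (93.3 ± 3.57) overlapped in that order, and no other neighbours did. In KO cells the ends were Lama5 at 5.34 ± 0.102 and Hspg2 at 153 ± 8.55 CPM per kb. There Lama2 overlapped Nid2, and Nid1 (138 ± 10.9) overlapped Hspg2. Lamb2 lay above Lamb1 in WT (59.1 against 53.8 CPM per kb) and below it in KO (46.8 against 50.9). This order depends on the length used, since the exons of Lamb1 total 9917 bases and its coding sequence 5502. Per kb of coding length Lamb1 lay above Lamb2 in both genotypes, Nid1 was the highest in both (250.5 in WT and 256 in KO), and Hspg2 (99.4 in WT and 166.6 in KO) passed Lamc1 (160.1 and 141) only in KO.

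Because a trimer takes 1 alpha chain, the share of each alpha gene in the alpha total was compared, which does not depend on the scaling between libraries. Lama5 made up 20.8%, 21.8% and 20.9% of the Lama2, Lama4 and Lama5 total per kb in WT and 12.7%, 13.6% and 12.7% in KO libraries. The mean share went from 21.2% ± 0.529 to 13.04% ± 0.521 (SD, n = 3 each; exact two-sided permutation p 0.1, the smallest that 3 against 3 allows; adjusted p 0.125 over 5 shares). The share of Lama4 went from 48.0% ± 0.553 to 55.8% ± 0.731 (exact permutation p 0.1, adjusted 0.125) without overlap. That of Lama2 was 30.8% ± 0.261 in WT and 31.2% ± 1.25 in KO (exact permutation p 0.7), with overlapping ranges. Lamb2 made up 52.4% ± 0.170 of the 2 beta chains in WT and 47.9% ± 0.6998 in KO (exact permutation p 0.1, adjusted 0.125), each KO library below each WT library. Nid2 was 9.44% ± 0.429 of the nidogens in WT and 8.82% ± 0.170 in KO (exact permutation p 0.1, adjusted 0.125). The lowest WT library (8.944%) and the highest KO library (8.941%) almost touched. None of the 5 shares could pass a threshold of 0.05 in this design.

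Laminin alpha 1, an embryonic chain that is not among the 9 genes, had the only call upward among the other laminin chains. Lama1 had 27.8, 28.2 and 29.3 CPM in WT and 72.7, 73.3 and 78.1 in KO libraries, a clear gap. The log2 fold change was 1.39 (SE 0.06, edgeR adjusted p 3.76e-21), larger than that of any of the 9 genes. Adding Lama1 and Lama3 to the alpha total, a step chosen after the data were seen, gave Lama1 a share of 6.79% ± 0.249 in WT and 15.8% ± 0.335 in KO (exact permutation p 0.1). In that total Lama5 went from 19.7% ± 0.529 to 11.0% ± 0.427 and Lama2 from 28.7% ± 0.304 to 26.2% ± 1.08, whereas Lama4 went from 44.7% ± 0.404 to 46.9% ± 0.605.

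**Figure D3:**
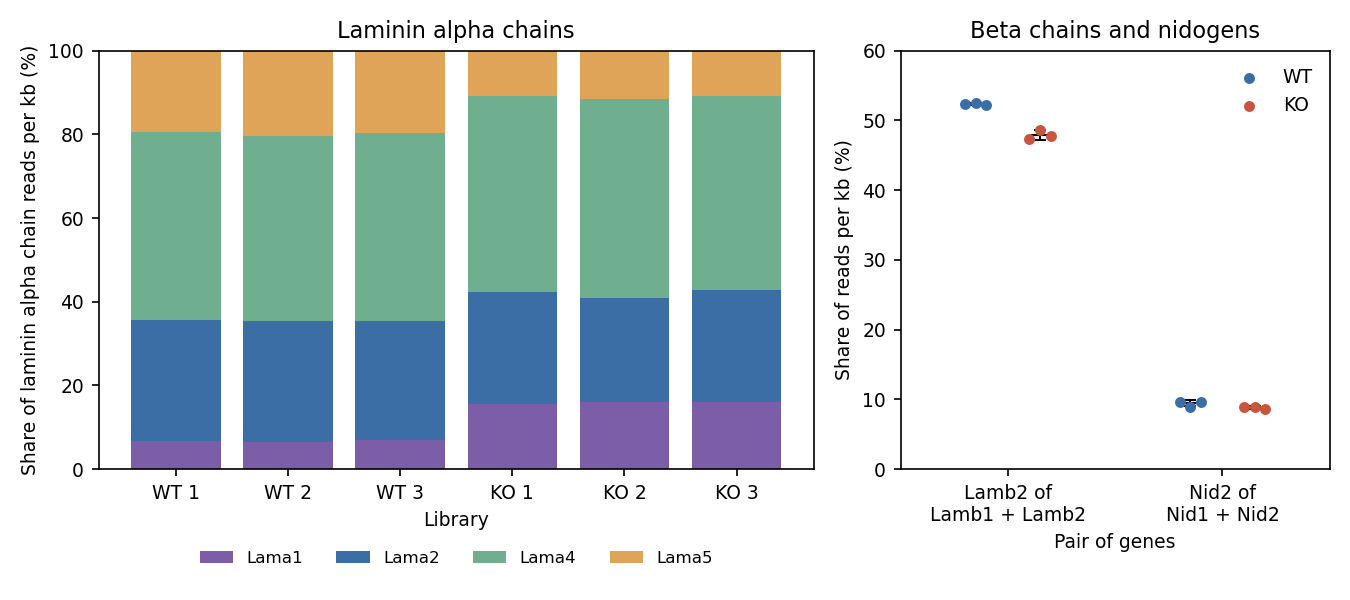
Left, the share of each laminin alpha gene in the total of Lama1 to Lama5 reads per kb of exonic length, as stacked bars for each library; Lama3, at 4 to 16 counts per library, is in the total but too small to draw. Right, the share of Lamb2 in the beta chains and of Nid2 in the nidogens, 1 point per library with the mean and SD. The Lama5 part is thinner and the Lama1 part thicker in all 3 KO libraries.

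Set against the gamma chain, which every trimer of these chains needs, the summed Lama2, Lama4 and Lama5 level per kb was 0.432 ± 0.00724 times that of Lamc1 in WT and 0.501 ± 0.0225 in KO. The beta chains were at 1.21 ± 0.0251 and 1.19 ± 0.0792 times Lamc1, overlapping between genotypes. Perlecan went from 0.979 ± 0.0188 to 1.87 ± 0.0443 times Lamc1, and the nidogens from 1.60 ± 0.0362 to 1.84 ± 0.0285. These ratios are descriptions and were not tested.

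Among the other laminin chains tested, Lamb3, of epithelial laminin, had the largest fall, from 5.33 ± 1.02 to 1.003 ± 0.199 CPM (-2.41, SE 0.21, edgeR adjusted p 4.33e-12). Lamc3, named after its values were seen, went from 1.67 ± 0.273 to 0.512 ± 0.0350 CPM (-1.70). Lama3, at 4 to 16 counts per library, was not tested. Beside the counts of called genes in the lists below, 33.0% of all genes were called lower and 33.7% higher.

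Collagen IV, the other network of the basement membrane, was lower where it was abundant. Of 5 tested genes, 3 fell and 2 were not called, with a median of -0.47. Col4a1, the most abundant, had 4140, 4228 and 4238 CPM in WT and 2739, 2730.2 and 2825 in KO libraries, or -0.60 as a log2 fold change (SE 0.04, edgeR adjusted p 4.6e-16). Col4a2, its obligate partner, and Col4a5 changed by -0.48 and -0.47, both named after their values were seen. Col4a4 and Col4a6, at under 1 CPM, were not called.

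Other basement membrane components went both ways: of 17 tested, 8 fell, 7 rose and 2 were not called, with a median of -0.11 that turned to 0.06 with library size alone. Npnt, which encodes the integrin ligand nephronectin, had the largest fall, from 310.3 ± 8.43 to 65.2 ± 1.62 CPM (-2.25, SE 0.05, edgeR adjusted p 1.13e-30). The most abundant, the collagen-binding glycoprotein Sparc, went from 6602 ± 66.5 to 5440.2 ± 125 CPM (-0.28, SE 0.04, adjusted p 5.64e-08). Hmcn1 had the largest rise, at 1.45 ± 0.408 CPM in WT and 4.55 ± 0.809 in KO (1.65, SE 0.21). The 2 other heparan sulphate proteoglycans of basement membranes, named after their values were seen, were both called higher, as perlecan was: collagen XVIII gene Col18a1 went from 676 ± 7.36 to 1534 ± 15.4 CPM (1.18, SE 0.04, adjusted p 3.31e-24) and agrin gene Agrn from 353 ± 1.38 to 389 ± 13.8 (0.14, SE 0.04, adjusted p 0.0031).

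The receptors that bind laminin were lower in KO. Of 8 tested genes, 7 fell and 1 was not called, 3 of them by over 2-fold, with a median log2 fold change of -0.88. Without WT replicate 1, 6 fell, Itgb4 losing its call, and 8 fell with GC and length offsets. With library size alone, 6 fell and Cd151, a tetraspanin partner of laminin-binding integrins, was called higher in place of not called (0.11 against -0.06). Itga7, the integrin alpha 7 chain of muscle, had 1284, 1262 and 1265 CPM in WT and 348, 339.8 and 356 in KO libraries. Its log2 fold change was -1.87 (SE 0.04, edgeR adjusted p 1.32e-29). The beta 1 chain Itgb1, the most abundant of the list, went from 2378 ± 52.5 to 1948 ± 64.2 CPM (-0.29, SE 0.04, adjusted p 8.76e-08). Dystroglycan gene Dag1 went from 1271 ± 13.4 to 663 ± 50.1 CPM (-0.94) and the Lutheran glycoprotein gene Bcam, a receptor for laminin alpha 5, from 159 ± 0.803 to 44.9 ± 2.12 (-1.82), both named after their values were seen.

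Among the enzymes that build the laminin-binding glycan of dystroglycan, 5 of 11 tested fell, 2 rose and 4 were not called, with a median of -0.08. Under library size alone 3 fell and 4 rose, and the median was 0.09. In place of 5, 4 fell with DESeq2, with GC and length offsets and when any library but WT replicate 1 was left out. Pomgnt2 had the largest fall, from 20.01 ± 0.303 to 11.3 ± 0.817 CPM (-0.83, SE 0.09, edgeR adjusted p 3.01e-10), and Pomt1 the largest rise (0.29, SE 0.07). Of 16 genes that make or edit heparan sulphate, the glycan carried by perlecan, 5 fell, 5 rose and 6 were not called, with a median of 0.00 (5 fell and 8 rose with library size alone). On the TMM scale both counts were close to the shares of all genes, 33.0% lower and 33.7% higher. The sulphatase Sulf1, the most abundant, fell (-0.41, SE 0.04), as did the sulphotransferase Hs6st2 (-0.74, SE 0.06), and the epimerase Glce had the largest rise (0.55, SE 0.05).

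**Figure D4:**
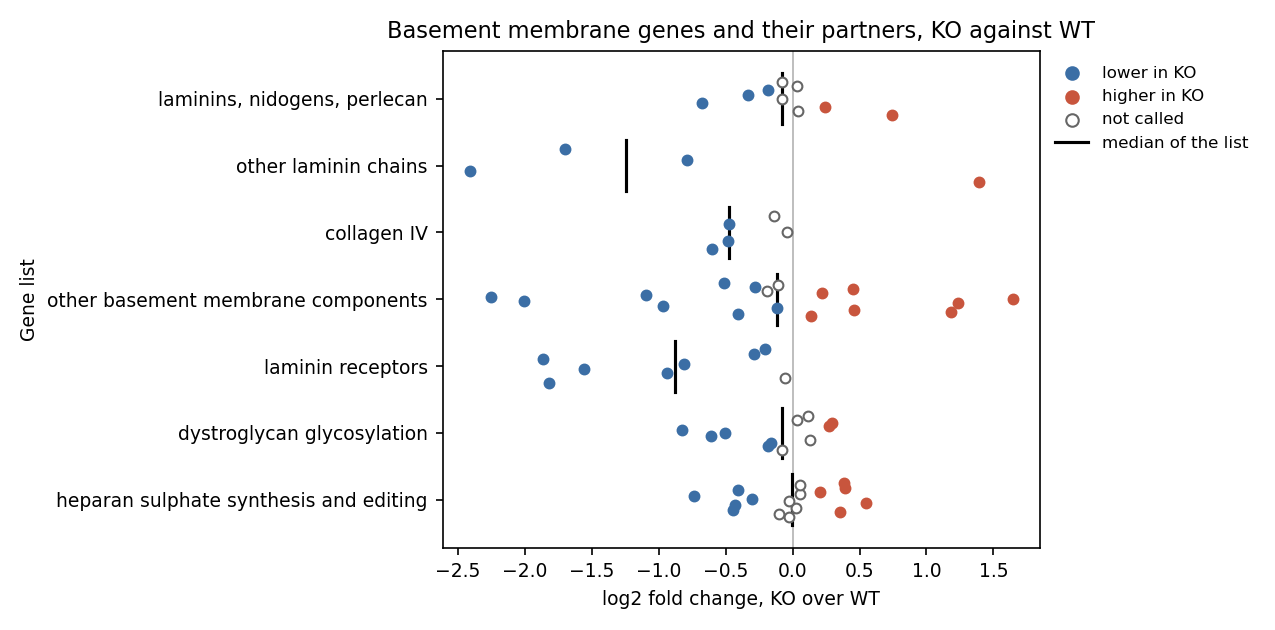
Log2 fold change, KO over WT, of every tested gene in the 9-gene set and in 6 lists of related genes; 1 point per gene, coloured by call, with the median of each list as a black bar. The 9 genes lie between -0.68 and 0.75, whereas laminin receptors reach -1.87 and other laminin chains run from -2.41 to 1.39.

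Markers of other cell types also moved with genotype. All 8 endothelial markers were lower in KO, and their summed level was 305 to 313 CPM in WT and 74.2 to 79.5 in KO libraries, with Pecam1 falling the most (-3.18) and Cdh5 the most abundant (-1.82). Of 6 Schwann and glial markers, 5 were higher and 1 was not called, with sums of 201 to 209 and 742 to 744 CPM. Mbp rose the most (3.47). Ngfr, the most abundant (2.00), made up most of both sums, at 130 ± 2.47 and 519 ± 3.45 CPM. All 6 macrophage and leukocyte markers were higher, with sums of 90.1 to 95.7 and 273 to 279 CPM. Lyz2, the most abundant (1.53), made up most of both sums, at 82.5 ± 2.30 and 238 ± 2.96 CPM. Tyrobp rose the most (3.50), from a low level of 0.488 ± 0.0849 CPM in WT to 5.51 ± 0.438 in KO. Of 4 tenocyte markers, 3 were higher and Scx was lower (-1.60), with sums of 160.3 to 165 and 275 to 285.5 CPM. Thbs4 rose the most (4.31) and was the most abundant over the 6 libraries. It went from 10.5 ± 0.836 to 208.8 ± 6.56 CPM, whereas Scx, the most abundant in WT, went from 140.7 ± 2.87 to 46.3 ± 1.09. Fibro-adipogenic markers differed less: 3 of 5 tested were lower and 1 higher, with sums of 307 to 315 and 246 to 260.02 CPM, led by Dcn (-0.59) and Pdgfra (0.38). The count fell to 2 lower, with Dpt (-0.42, edgeR adjusted p 0.0303) no longer called, with library size alone, with DESeq2 and without WT replicate 2 or 3 or KO replicate 2 or 3. Smooth muscle and pericyte markers had 3 of 6 lower and 2 higher, with sums of 3546 to 3696 and 3199 to 3295 CPM, led by Rgs5 (-0.96), Notch3 (0.34) and the most abundant, Acta2 (-0.29). Without WT replicate 3, Pdgfrb lost its call and 1 was higher. Among muscle lineage markers, 5 of 6 were lower, with Myh3 at -2.59, and Pax7 was higher (0.53). No tested marker was at 0 in any library, and Pi16 was too low to test. In bulk RNA, fewer cells of a type and less RNA per cell cannot be told apart, and the part of these cell types in the changes of Lama4, Lama5, Lama1 and Hspg2 was not tested.

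The genes whose profiles over the 6 libraries lay nearest to Lama5, by Euclidean distance of centred log2 CPM, were the striated muscle kinase gene Speg (distance 0.044), the cytokine receptor gene Il17ra (0.050) and Tm9sf3 (0.073). Speg, for example, went from 95.8 ± 3.37 to 59.7 ± 1.87 CPM (-0.68, SE 0.05). Nearest to Hspg2 were Cc2d2a (0.070), Mdn1 (0.075) and the calpain gene Capn5 (0.079). With 6 libraries in 2 genotypes, such distances mainly reflect a like change between genotypes.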

How the data were processed

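RNA-seq was measured in 6 libraries. The values deposited by the authors are raw counts for each Ensembl gene, in whole numbers with no normalisation. The submitters' processing notes name the mm10 build, featureCounts 2.0.1 and HISAT2 2.2.1. Annotation release, strand use and counting options: not given in the sources used here. Counts were read from the matrix of the whole series. The deposited count tables per library, with totals of 5501088 to 9136354, differ from it gene by gene: of 9941 genes averaging 200 counts or more, 5.84% lay within 0.8 to 1.25 times the matrix mean, and none of the 9 genes did, so they serve only as an alternative.

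Of 21666 genes, 21632 matched GENCODE M21, an mm10 annotation, which gave symbols, positions and lengths. Genes were filtered with filterByExpr (minimum count 10, minimum total 15) of edgeR 4.0.16 in R 4.3.3, scaled by TMM and tested with the robust quasi-likelihood F-test, genotype as the only term, and Benjamini-Hochberg adjustment over 15518 genes. The test was checked on simulated data. Standard errors are the fold change over the square root of F. Chain shares used counts per kb of exonic length and exact permutation tests. Alternatives used DESeq2 1.42.0, limma 3.58.1 voom, other scalings, no filter, GC and length offsets, a replicate block and each library left out. Within-genotype library pairs differed by a mean chi-square of 3.18 to 5.11 per gene, above sampling noise, so no pair was taken as 1 library. The replicate spread (biological coefficient of variation) was 4.91%.

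The 9 genes and all lists were chosen with earlier results of these data known. In other lists, the text names the called gene with the largest change each way and the most abundant gene, and for Lama5 and Hspg2 the 3 nearest profiles. Genes outside that rule are marked, and some genes of these lists are not reported here.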

Additional observations from a re-analysis of the deposited data

How the results depend on the processing

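With the matrix, Hspg2, Lama4, Lama5 and Lamb2 kept direction and call in all 13 alternatives, and Lamc1 in all but library size alone. With library size alone, 5 of the 9 genes were called higher in place of 2, and Lamb1 (0.0906) and Nid2 (0.0914) changed sign. Of all 15518 genes, 7224 were called higher in place of 5230, and the median change moved from 0.0214 to 0.1919. This setting leaves out the TMM factors, 0.941 to 0.943 in WT and 1.060 to 1.063 in KO libraries. Why those factors differ by genotype was not tested. Leaving out each library in turn gave 3 to 4 of the genes lower and 2 to 4 higher, 4929 to 5127 of all genes lower and 4837 to 5089 higher, and took Nid1 from -0.0132 (without KO replicate 1) to 0.0953 (without KO replicate 2). Over the same fits the KO minus WT share of Lama2 in the alpha chains ran from -0.0317 (without KO replicate 3) to 1.10 percentage points. It was -1.13 with coding length and -2.45 with alpha chains Lama1 to Lama5, the latter chosen after seeing the data, as were the GC and length offsets. With coding length the shares of Lama4 (58.5% to 64.6%) and Lama5 (11.9% to 6.96%) moved the same way as with exonic length.

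The per-library tables gave 2745 genes lower and 2691 higher of 9871 tested, and of the 9 genes 3 lower (Hspg2, Lamb1 and Lamc1) and 1 higher (Nid1). There Hspg2 turned to -1.77 and was called lower (edgeR adjusted p 4.04e-08). Nid1 gained a call (1.06, edgeR adjusted p 6.71e-05) and Lamb2 lost its call (-0.14, edgeR adjusted p 0.122). Lama2 was at -0.35 and Nid2 at 0.0104. The shares of Lama2, Lama4, Lama5 and Lamb2 moved by -2.18, -0.215, 2.40 and 1.72 points. The share of Nid2 in the nidogens moved by -9.42 points, against -0.621 in the matrix. Lama4 and Lama5 had 0 to 2 counts per library in those tables and were not tested in them, against 1157 to 6839 in the matrix, and Hspg2 had a mean count 0.134% of that in the matrix. The cause was not tested.

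With the replicate block, 5 of the 9 genes were called, 3 lower and 2 higher, and 10209 of all genes in place of 10353. Deviations of same-numbered libraries correlated at -0.0192 to -0.00452, so no pairing by number was visible in the counts. Such values cannot show whether same-numbered libraries shared a source, which the labels do not give. Intervals and p-values cover counting error and the spread of 3 libraries per genotype.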
